A study of Rattus norvegicus with 24 samples.

Results

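Expression of 10 genes of the extracellular matrix was followed through 24 rat kidneys: the glycoproteins Fn1, Tnc, Postn, Sparc, Thbs1 and Thbs2, and the proteoglycans Dcn, Lum, Bgn and Vcan. They were taken by symbol from a written list, and each had 1 row among the 17334 genes measured. Every animal was a PKD/Mhm (Cy/+) rat, a strain in which 1 mutant Anks6 copy gives cystic kidneys, killed at 8 months of age, and each group held 6 animals. The Ctrl group was left untreated. The CoCM group had received, once a month for 6 months, the supernatant of human skin-derived ABCB5+ cells that were co-cultured with THP-1-derived macrophages under IFN-γ and LPS. The i.p. and i.v. groups had received the human ABCB5+ cells themselves on the same schedule, into the peritoneal cavity or into a vein. The sources name different routes for the CoCM (into a vein in the study's methods, intraperitoneal in the deposited design text), so route cannot be told apart from product in that group. All animals were male, heterozygotes had been told from non-cystic animals by palpation of the abdomen, and no healthy or sham-injected group was included here. Total RNA of the whole left kidney was sequenced, with 9304630 to 14125457 estimated counts assigned to genes per animal.

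The matrix between kidney cells is made mostly by fibroblasts and their relatives, and it holds collagen fibres together with glycoproteins and proteoglycans that tie cells to those fibres. Fibronectin (Fn1) is an early scaffold for other matrix proteins. Matricellular proteins (Tnc, Postn, Sparc, Thbs1, Thbs2) are matrix proteins that act mainly as signals to cells, many of them through integrins, and most are scarce in resting adult tissue and abundant in repair and fibrosis. Decorin, lumican and biglycan (Dcn, Lum, Bgn) are small leucine-rich proteoglycans, of which decorin and lumican bind collagen fibrils and space them, while versican (Vcan) is a large chondroitin sulphate proteoglycan that binds hyaluronan.

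On the TPM scale, which corrects for transcript length and scales each library to a common total, the members' levels differed widely. Sparc was the most abundant, with a median of 822 TPM over the 24 animals (290.3 to 1385), followed by Bgn at 547 TPM (120.3 to 947) and Dcn at 319 TPM (19.1 to 688). These 3 were far above the rest. Thbs1 followed at a median of 79.9 TPM and Fn1 at 41.3 TPM. The remaining 5 members lay below 10 TPM in the median, with Lum at 9.54, Postn at 8.31, Thbs2 at 7.22, Tnc at 4.72 and Vcan at 3.30 TPM. Sparc exceeded Bgn, Bgn exceeded Dcn, Thbs1 exceeded Fn1 and Fn1 exceeded Lum in 24 of 24 animals, and Dcn exceeded Thbs1 in 23. The lower end of the order was less fixed. Lum exceeded Postn in only 12 of 24 animals and Postn exceeded Thbs2 in 17, so Lum, Postn and Thbs2 were not separated beyond the spread between animals. Thbs2 exceeded Tnc in 23 animals, and Tnc exceeded Vcan in 19.

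**Figure D1:**
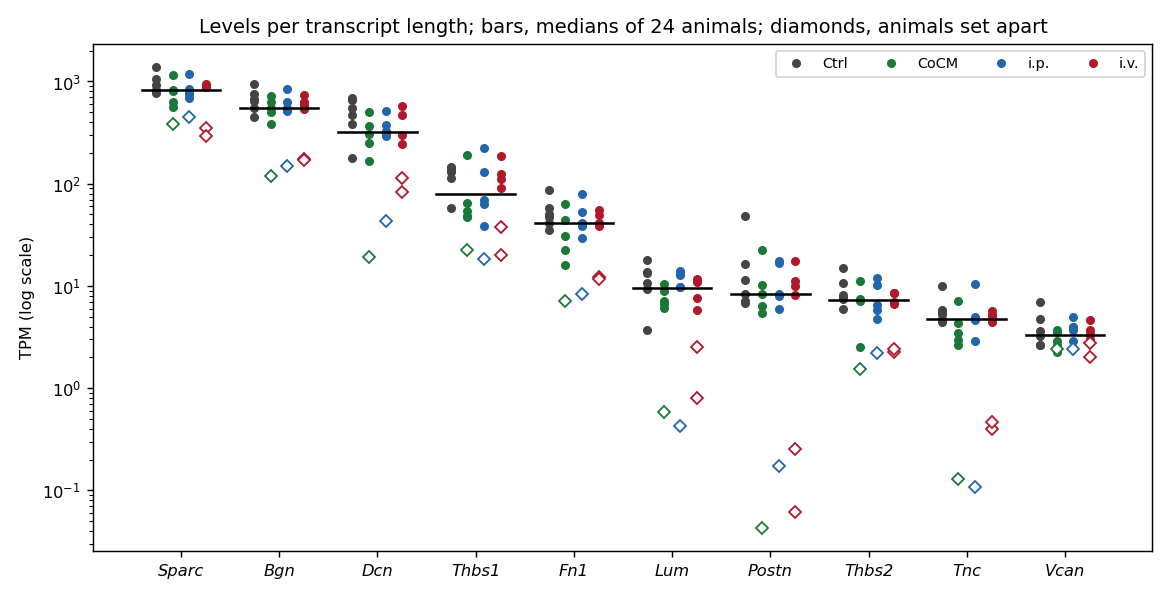
TPM (log axis) of the 10 members in 24 kidneys, coloured by group, with black bars for the medians over all animals and white diamonds for CoCM 39, i.p. 38, i.v. 36 and i.v. 37. The order ran from Sparc (median 822 TPM) to Vcan (median 3.30 TPM), and the 4 diamonds lay under the other points in most columns and close to them for Vcan (2.01 to 2.77 TPM).

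Before the groups are compared, 4 treated animals have to be described. On component 1 of the log expression of 12780 other genes, from which the members were left out and which held 58.2% of the variance, CoCM 39, i.p. 38, i.v. 36 and i.v. 37 lay at 84.3 to 100.1, and the other 20 animals at −50.4 to 11.2. They are called the animals set apart below. Their animal numbers are consecutive, they belong to all 3 treated groups, and no Ctrl animal was among them. Ctrl animals are numbered from 1 to 24 and treated animals from 26 to 43, so number order cannot be told apart from treatment. What the order stands for is not given. They were recognised from the expression of these same kidneys, so the comparison of their values with those of the other animals is a description, and the main group results are given with and without them.

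Postn, whose product periostin is laid down in injured and fibrotic kidney, was nearly absent from the 4 animals. It had 1 count in CoCM 39, 4 in i.p. 38, 7 in i.v. 36 and 2 in i.v. 37. As counts per a common library total, with library sizes scaled by the TMM method (CPM), that was 0.114, 0.485, 0.665 and 0.186, while the other 20 animals had 12.5 to 123 CPM with a median of 20.8. All 4 values were far below the lowest of the others, although those with 1 and 2 counts lie under the limit of 3 counts that a count of 0 allows (0.341 CPM in CoCM 39 and 0.279 CPM in i.v. 37 on this scale). Tnc (tenascin-C, a hexameric glycoprotein of developing and injured tissue) was low in the same animals. Its counts were 6 in CoCM 39, 5 in i.p. 38, 22 in i.v. 36 and 30 in i.v. 37, or 0.683, 0.606, 2.09 and 2.79 CPM, beside 12.7 to 50.5 CPM in the others. The median of those 20 animals was 32.2 times the value of CoCM 39 and 7.89 times the value of i.v. 37.

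Lum had 0.797 CPM in CoCM 39, 0.606 in i.p. 38, 3.42 in i.v. 36 and 1.21 in i.v. 37, and 3.82 to 22.8 CPM in the others. The i.v. 36 value was thus close to the lower edge, which is the value of Ctrl 23. Dcn had 23.9 CPM in CoCM 39, 56.1 in i.p. 38, 103 in i.v. 36 and 159 in i.v. 37, under the 171 to 777 CPM of the others. Bgn ranged from 238 to 385 CPM in the 4 animals and from 680.1 to 1782 in the others. Fn1 ranged from 51.9 to 95.5 CPM against 107 to 593, and Sparc from 530.4 to 761 CPM against 829 to 2134. In these 7 members (Fn1, Tnc, Postn, Dcn, Lum, Bgn, Sparc) each of the 4 values lay under the range of the other 20 animals, which was so for 1812 of the 12778 genes tested (14.2%).

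The other 3 members overlapped. Thbs1 (thrombospondin 1, which binds CD36 and CD47 and activates latent TGF-β) was under the range in 3 of the 4 animals and at 114 CPM in i.v. 36, beside a lowest value of 112 CPM in the others. Thbs2 was under the range in 2 of the 4. Vcan was within it in all 4, with 10.5 CPM in CoCM 39, 12.4 in i.p. 38, 14.1 in i.v. 36 and 9.85 in i.v. 37, beside 8.61 to 27.2 CPM in the others. The scale mattered here. On TPM, where no TMM scaling enters, Thbs1 and Thbs2 were under the range in all 4 animals, making 9 members of 10, and Vcan was under it in 1 (2.01 TPM in i.v. 37, beside a lowest value of 2.24). The share of all genes under the range was counted on CPM only, so the 9 have no such share beside them.

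**Figure D2:**
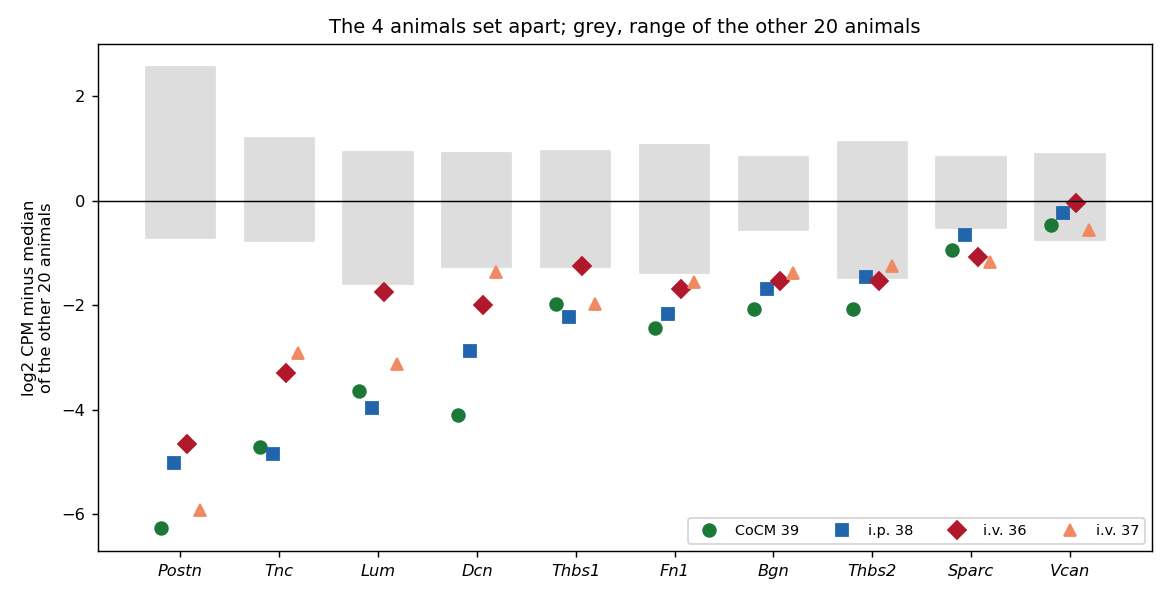
Log2 CPM of each member in CoCM 39, i.p. 38, i.v. 36 and i.v. 37, as the difference from the median of the other 20 animals (zero line), with the range of those 20 animals in grey. Postn lay between −4.66 and −6.26, far under the grey range, and Vcan between −0.04 and −0.56, inside it.

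The members did not differ by a common factor, which the ratios of TPM values show without any scaling between libraries. Tnc per Fn1 was 0.0893 to 0.162 in the 20 animals and 0.0180, 0.0132, 0.0327 and 0.0399 in CoCM 39, i.p. 38, i.v. 36 and i.v. 37. Vcan per Dcn was 0.00489 to 0.0152 in the 20 animals and was above that range in each of the 4, at 0.127, 0.0567, 0.0334 and 0.0178. Dcn per Bgn was below the range of 0.390 to 0.911 in CoCM 39 (0.159) and i.p. 38 (0.286), and lay within it in i.v. 36 (0.470) and i.v. 37 (0.656). Thbs1 per Thbs2 stayed within the range of the others in all 4.

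Markers of several cell types moved with these values, and their part in the result was not tested. The summed CPM of 6 fibroblast markers was 229 to 523 in the 4 animals and 719 to 2915 in the others, with none of the 6 at 0 in any sample. For 4 macrophage markers the sums were 25.1 to 78.9 against 128 to 346, and for 6 markers of injured tubule 444 to 756 against 6994 to 13922. Sums for 14 markers of the normal nephron were higher, at 21038 to 23941 against 5391 to 15186. Taken singly, on CPM without TMM scaling, only Slc34a1 lay wholly above the others (3592.7 to 5353.4 against 680.97 to 3120.3). Umod (5614.8 to 7553.5 against 1109.4 to 6059.1) and the remaining nephron markers overlapped. The 4 endothelial markers (225 to 344 against 196 to 411) and the 4 markers of myofibroblasts and smooth muscle (358 to 571 against 416 to 1508) overlapped. In bulk tissue, fewer cells of a type and less RNA per cell cannot be told apart. The label kidney held in all groups, since 14 of the 15 kidney markers written down were expressed throughout, and only Pvalb, a marker of the distal convoluted tubule, was at 0 in 22 of 24 samples.

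Promoter sequence is shown for Postn, which had the lowest CPM of the members in each animal set apart, and for Tnc, which was also far under the range of the other animals. It is shown too for Lum, the neighbour of Dcn, and for Vcan, whose CPM stayed within the range of the others (the farther upstream of its 2 starts). A promoter was found in the RefSeq table of the rat assembly GRCr8 for 6 of the 10 members, and the 250 bases before the start are printed 5′ to 3′ on the gene's strand. Capitals mark matches, on either strand, to the motifs searched, which were the TATA box TATAAA, the AP-1 site TGANTCA, the TEAD site GGAATG, the Sp1 site GGGCGG and the CCAAT box CCAAT. No searched motif overlapped another in these windows.
Postn, chr2:140677811-140678060, plus strand: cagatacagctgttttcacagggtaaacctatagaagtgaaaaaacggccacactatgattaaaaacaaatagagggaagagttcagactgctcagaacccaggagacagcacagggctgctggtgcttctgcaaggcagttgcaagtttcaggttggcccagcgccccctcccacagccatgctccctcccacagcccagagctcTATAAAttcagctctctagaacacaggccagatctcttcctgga
Tnc, chr5:82476132-82476381, minus strand: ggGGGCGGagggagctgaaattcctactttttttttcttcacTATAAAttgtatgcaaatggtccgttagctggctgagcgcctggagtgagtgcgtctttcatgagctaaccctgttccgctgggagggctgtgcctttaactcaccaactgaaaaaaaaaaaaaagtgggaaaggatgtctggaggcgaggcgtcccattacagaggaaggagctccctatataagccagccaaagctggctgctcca
Lum, chr7:34245456-34245705, plus strand: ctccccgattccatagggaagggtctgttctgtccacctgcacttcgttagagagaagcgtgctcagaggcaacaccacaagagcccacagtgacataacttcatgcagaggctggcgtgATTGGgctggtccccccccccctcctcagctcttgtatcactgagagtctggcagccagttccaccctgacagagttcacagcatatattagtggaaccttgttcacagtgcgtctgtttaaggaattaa
Vcan, chr2:22595956-22596205, minus strand: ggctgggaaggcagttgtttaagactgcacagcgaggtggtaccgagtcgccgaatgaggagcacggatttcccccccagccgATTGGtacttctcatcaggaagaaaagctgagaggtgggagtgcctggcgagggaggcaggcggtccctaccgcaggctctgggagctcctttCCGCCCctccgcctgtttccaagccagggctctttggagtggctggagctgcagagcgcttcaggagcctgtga
The Postn window held TATAAA 44 to 39 bases before the start, and the Tnc window held it at 208 to 203, farther away than a TATA box usually lies. Only these exact letters were searched, and the Tnc window also reads tatataa closer to the start of the gene. TATAAA was found in 12.9% of 33465 rat promoter windows of this length. Vcan held no TATAAA and had an Sp1 match at 74 to 69 bases (30.5% of all windows) and a CCAAT match on the other strand at 167 to 163 (34% of all windows). Lum had 1 CCAAT match. The TEAD letters, found in 12.1% of windows, occurred in the promoters of Thbs1 (47 to 42 bases before the start) and Sparc (33 to 28 bases, other strand), which are not printed. The AP-1 letters, in 6.34% of windows, were in none of the 6 members' windows. Such matches are descriptions of letters and do not show binding.

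The study asked whether treatment changed the kidney's gene expression, and each treated group was therefore compared with Ctrl by edgeR's quasi-likelihood F-test over all 12778 genes tested. All 10 members passed the filter on low counts. In CoCM against Ctrl, 0 of 10 members passed an adjusted p of 0.05 (Benjamini-Hochberg over all genes tested), beside 1 of all genes (0.00783%), and 1 member had an unadjusted p under 0.05, beside 11.9% of all genes. All 10 fitted log2 fold changes were negative, with a median of −0.70 beside 0.01 over all genes. Without the 4 animals set apart the median was −0.50. It was −0.36 without Ctrl 1 alone and −0.97 without CoCM 40 alone. Over all 24 animals the marker medians were −0.49 (fibroblast), −0.59 (macrophage), −0.44 (endothelium), −0.13 (myofibroblast and smooth muscle), −0.07 (injured tubule) and 0.22 (normal nephron). The part of these cell types in the members' shift was not tested. DESeq2 also called 0 members (1 under an unadjusted 0.05), limma-voom with sample weights 0 (4 under 0.05) and limma on log2(TPM + 1) 0 (0 under 0.05), although DESeq2 and limma-voom called 79 and 183 of all genes.

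In i.p. against Ctrl, 0 of 10 members passed (0% of all genes) and 0 had an unadjusted p under 0.05 (1.77% of all genes). The median log2 fold change of the members was −0.39, −0.18 without the animals set apart and −0.14 without Ctrl 1 alone. Leaving out i.p. 29 alone moved it the other way, to −0.61. In i.v. against Ctrl, 0 of 10 passed (0% of all genes) and 0 had an unadjusted p under 0.05 (5.78% of all genes). The members' median was −0.62, −0.26 without the animals set apart, −0.35 without Ctrl 1 alone and −0.77 without i.v. 28 alone. DESeq2, limma-voom and limma on TPM gave 0 members by either measure in both comparisons. The 3 comparisons share the same 6 Ctrl animals, so their common sign is not 3 separate observations. The ranges of CPM in a treated group and in Ctrl overlapped for each of the 10 members in each of the 3 groups. This held with the animals set apart (30 of 30 pairs) and without them (30 of 30 pairs). Overlap was not counted over all genes, so these counts do not tell whether the members differ from other genes.

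**Figure D3:**
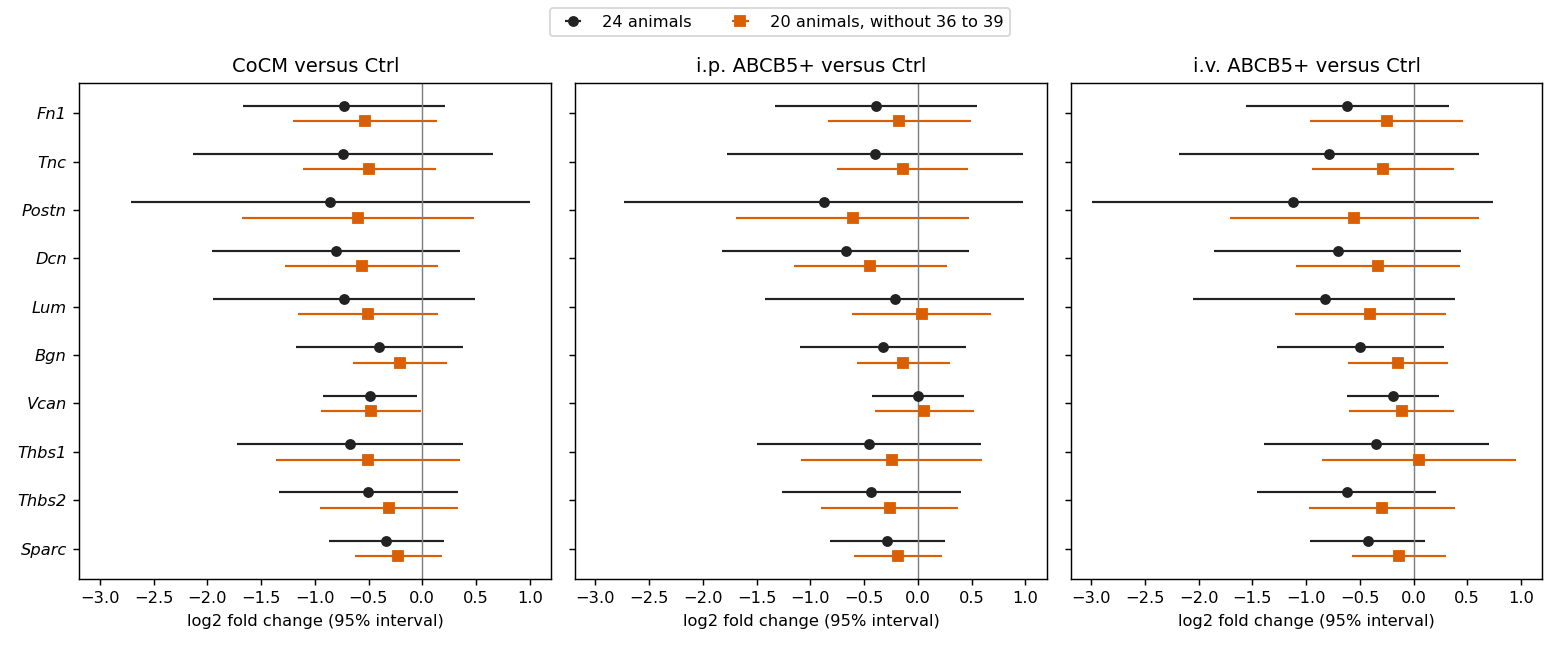
Log2 fold change of each member against Ctrl (points, with 95% intervals from the edgeR quasi-likelihood fit) for the 3 treated groups, over 24 animals (black) and over 20 animals without the 4 set apart (orange). Nearly all points lie left of zero, and all intervals but that of Vcan in CoCM include zero.

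Fn1 had a lowest, median and highest CPM of 194, 289 and 593 in Ctrl, and of 51.9, 169.8 and 405 in CoCM. In the i.p. group these were 62.9, 259 and 441, and in the i.v. group 87.3, 231 and 341. The medians stood below Ctrl in all 3 groups while the ranges overlapped widely. Its log2 fold change in CoCM was −0.73 ± 0.452 (SE, n = 6 per group; edgeR adjusted p = 0.49), and without the animals set apart −0.53 ± 0.315 (5 against 6). For i.p. and i.v. the Fn1 values were −0.39 ± 0.45 and −0.62 ± 0.451, and without those animals −0.17 ± 0.313 and −0.25 ± 0.335. Leaving out 1 animal, the CoCM value ranged from −1.06 (without CoCM 40) to −0.48 (without Ctrl 1). The i.p. value ranged from −0.61 (without i.p. 29) to −0.14 (without Ctrl 1), and the i.v. value from −0.79 (without i.v. 43) to −0.37 (without Ctrl 1).

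Tnc stood at 19.3, 23.7 and 50.5 CPM in Ctrl, at 0.683, 14.9 and 33.5 in CoCM, at 0.606, 21.5 and 42 in i.p., and at 2.09, 20.1 and 25.4 in i.v. Outside the animals set apart, the i.v. kidneys lay close together at 19.0 to 25.4 CPM. The largest of its 3 log2 fold changes was −0.78 ± 0.667 in i.v. (adjusted p = 0.694 by edgeR), and without i.v. 36 and i.v. 37 it was −0.28 ± 0.309.

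Postn stood at 15.2, 21.0 and 123 CPM in Ctrl, at 0.114, 17.5 and 53.4 in CoCM, at 0.485, 20.1 and 35.6 in i.p., and at 0.186, 19.3 and 40.9 in i.v. The 4 medians were thus close to each other, while the lowest and highest animals differed widely. Its fold change in i.v. was the largest among the members, −1.12 ± 0.894 on the log2 scale (adjusted p = 0.691 by edgeR), and became −0.55 ± 0.546 without the animals set apart. A single Ctrl animal weighed as much. Without Ctrl 1 alone, which had 123 CPM where the other Ctrl animals had 15.2 to 34, the log2 fold changes of Postn were −0.03 for CoCM (−0.86 with it), −0.04 for the i.p. group (−0.87) and −0.29 for the i.v. group (−1.12).

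Thbs1 had 157, 340.5 and 415 CPM in Ctrl, 68.7, 143 and 520.3 in CoCM, 57.8, 179 and 523 in i.p., and 68.2, 256 and 478 in i.v. Its spread was wide also outside the animals set apart, from 125 to 520.3 CPM in CoCM and from 112 to 523 in i.p. The log2 fold change in CoCM was −0.67 ± 0.502 (adjusted p = 0.553 by edgeR), and −1.25 without CoCM 40, its highest animal. In the i.v. group the value of −0.35 ± 0.50 became 0.05 ± 0.424 without the animals set apart, so its direction rested on them. Thbs2, a close relative that lacks the TGF-β activating sequence, had 24.6, 34.1 and 70.2 CPM in Ctrl and group medians of 31, 27 and 27 in CoCM, i.p. and i.v. Its log2 fold changes were −0.50 ± 0.399, −0.43 ± 0.398 and −0.62 ± 0.399. They were −0.31, −0.26 and −0.29 without the animals set apart, and −0.25, −0.18 and −0.37 without Ctrl 1 alone.

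Sparc (osteonectin, a collagen-binding glycoprotein) had 1006, 1266 and 2134 CPM in Ctrl and medians of 1033 (CoCM), 1109.7 (i.p.) and 1147 (i.v.) Without the animals set apart the i.v. kidneys agreed closely, from 1142 to 1363 CPM. The log2 fold changes of −0.33 ± 0.257, −0.29 ± 0.257 and −0.43 ± 0.257 were among the smallest of the members, with adjusted p values of 0.559, 0.978 and 0.673 by edgeR. Without the animals set apart the Sparc values were −0.22, −0.19 and −0.14, and without Ctrl 1 alone −0.16, −0.11 and −0.25.

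Dcn had 171, 542 and 777 CPM in Ctrl, 23.9, 306 and 557 in CoCM, 56.1, 365 and 489.9 in i.p., and 103, 274 and 646 in i.v. All 3 treated medians were below the Ctrl median, and the lowest Ctrl animal was below every treated animal not set apart. In CoCM the log2 fold change was −0.81 ± 0.553 (adjusted p = 0.523 by edgeR), and without the animals set apart −0.57 ± 0.335. Lum, the gene next to Dcn on the rat assembly, had 3.82, 13.7 and 22.8 CPM in Ctrl and medians of 8.40, 13 and 7.32 in CoCM, i.p. and i.v. Its log2 fold changes were −0.73 ± 0.583 in CoCM and −0.83 ± 0.584 in i.v., and −0.505 and −0.402 without the animals set apart. In i.p. the Lum value was −0.21 ± 0.578 and became 0.04 ± 0.304 without the animals set apart. Bgn had 680.1, 1094 and 1782 CPM in Ctrl and medians of 906, 977 and 914 in the treated groups, with log2 fold changes of −0.40 ± 0.372, −0.32 ± 0.372 and −0.50 ± 0.373. Leaving out the animals set apart brought these Bgn values to −0.21, −0.14 and −0.15.

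Vcan, the member least touched in the animals set apart, had the smallest p of the members in CoCM. Its CPM was 9.50, 14.2 and 27.2 in Ctrl, 8.61, 10.9 and 13.6 in CoCM, 12.4, 15.5 and 18.9 in i.p., and 9.85, 14.6 and 16.5 in i.v. Every CoCM animal lay below the Ctrl median, and 3 of the 6 Ctrl animals lay within the CoCM range. The log2 fold change was −0.48 ± 0.207 (95% interval −0.92 to −0.05; unadjusted p = 0.0288, adjusted p = 0.383 by edgeR), and −0.47 ± 0.22 without the animals set apart (adjusted p = 0.284). Without Ctrl 1 it was −0.25. In i.p. the value was 0.00 ± 0.206 and in i.v. −0.19 ± 0.206.

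**Figure D4:**
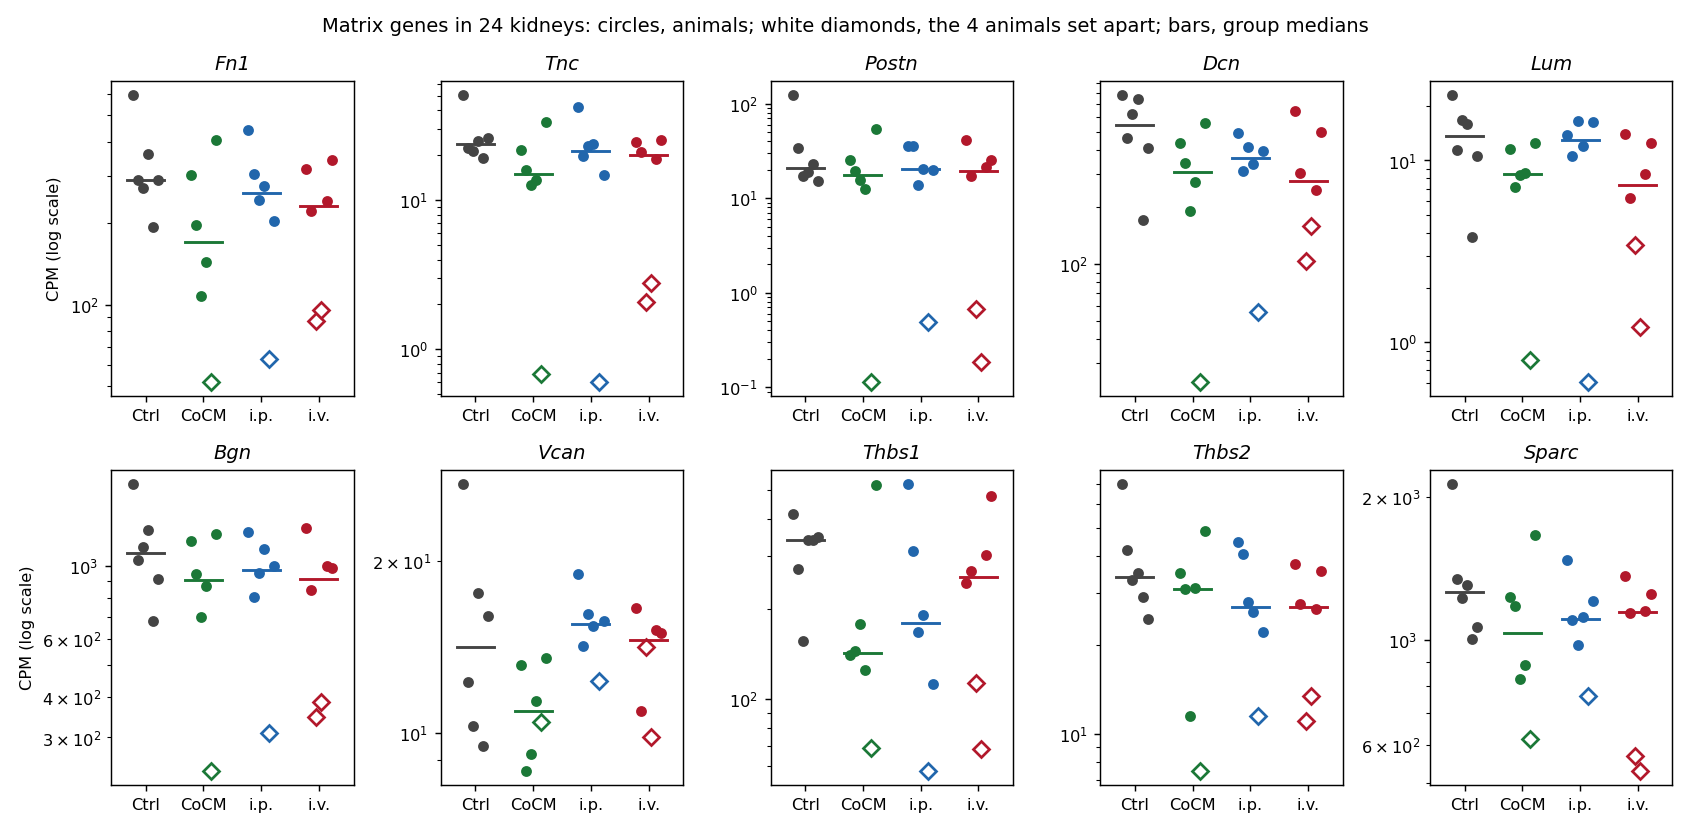
CPM (log axes, TMM-scaled) of the 10 members by group, with a circle for each animal, white diamonds for the 4 animals set apart and bars for group medians (n = 6 per group). Groups overlap in every panel, Ctrl 1 is the highest circle of the Ctrl group in each, and the diamonds are far below the circles for Postn and Tnc and among them for Vcan.

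The i.p. and i.v. groups received the same cells, and the comparison of the pair asks about route. By edgeR 0 of 10 members passed (0% of all genes) and 0 had an unadjusted p under 0.05 (2.14% of all genes), and DESeq2, limma-voom and limma on TPM also gave 0 by either measure. The median log2 difference, i.p. minus i.v., was 0.19, and 0.02 without the animals set apart. Leaving out 1 animal gave medians from 0.03 (without i.v. 36) to 0.37 (without i.v. 28). The largest difference of a member was that of Lum, 0.62 ± 0.584 (95% interval −0.60 to 1.83; adjusted p = 1 by edgeR). The interval for Postn ran from −1.61 to 2.11 and that for Vcan from −0.25 to 0.62, so that at this spread a difference of 2 times could be missed for Postn but would lie outside the Vcan interval. For any difference among the 4 groups, 0 of 10 members passed (0% of all genes) and 0 had an unadjusted p under 0.05 (4.71% of all genes), the lowest being Vcan at 0.0996.

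The Ctrl animals, which shared genotype, age and lack of treatment, differed among themselves more in these genes than in most. The SD of log2 CPM over the 6 Ctrl animals was 1.12 for Postn, larger than for 98.4% of the genes tested, 0.88 for Lum (96.6%), 0.81 for Dcn (95.7%) and 0.56 for Vcan (88.3%). It was 0.38 for Sparc (73.8%), the steadiest member, and 0.23 in the median of all genes. Ctrl 1 was the highest Ctrl animal in every member on the CPM scale and the highest of all 24 in 9 of them, with Thbs1 as the exception. Ctrl 23 was lowest among the Ctrl animals in Fn1, Tnc, Dcn, Lum, Bgn, Vcan and Sparc. In Ctrl 1 the 6 fibroblast markers summed to 2915 CPM, the highest of the 24, and the 14 nephron markers to 5391 CPM, the lowest. In Ctrl 23 these sums were 921 and 10214 CPM. The part of these cell types in the spread was not tested.

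Over the 20 animals not set apart, the members varied together. All 45 pairs had a positive Pearson r of log2 CPM, from 0.04 to 0.93 with a median of 0.73, and 34 pairs passed an adjusted p of 0.05 for both r and Spearman's rho (permutation tests of 100000 resamples, two-sided, adjusted over the 45 pairs). The values share library scaling, and every animal contributes 1 point to each pair. Passing pairs were not counted among all genes, so the count does not tell whether the members differ from other genes in this. With 4 to 6 animals of a group left, r was not given within groups. Fn1 and Tnc were the closest pair, with r = 0.93 and rho = 0.89 (adjusted permutation p = 0.000112 and 0.00015, n = 20), and r = 0.90 without the 2 animals farthest from the Fn1 median. Dcn and Bgn gave r = 0.87 and rho = 0.86 (0.80 without 2 animals), Bgn and Sparc r = 0.87 and rho = 0.86 (0.81), and the neighbours Dcn and Lum r = 0.84 and rho = 0.82 (0.78).

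Postn went with Sparc, at r = 0.87 and rho = 0.74 (0.70 without 2 animals), and much less with Lum, at r = 0.39 and rho = 0.21 (adjusted permutation p = 0.0983 and 0.375). Thbs1 stood most apart, passing both tests with only 4 of the 9 others, namely Fn1, Tnc, Postn and Thbs2. With the proteoglycans its r was 0.27 for Dcn, 0.27 for Bgn, 0.44 for Vcan and 0.04 for Lum, and none of these pairs passed. The correlations rested in part on extreme animals, since leaving out 2 animals per pair brought the median r from 0.73 to 0.60, with all 45 still positive.

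**Figure D5:**
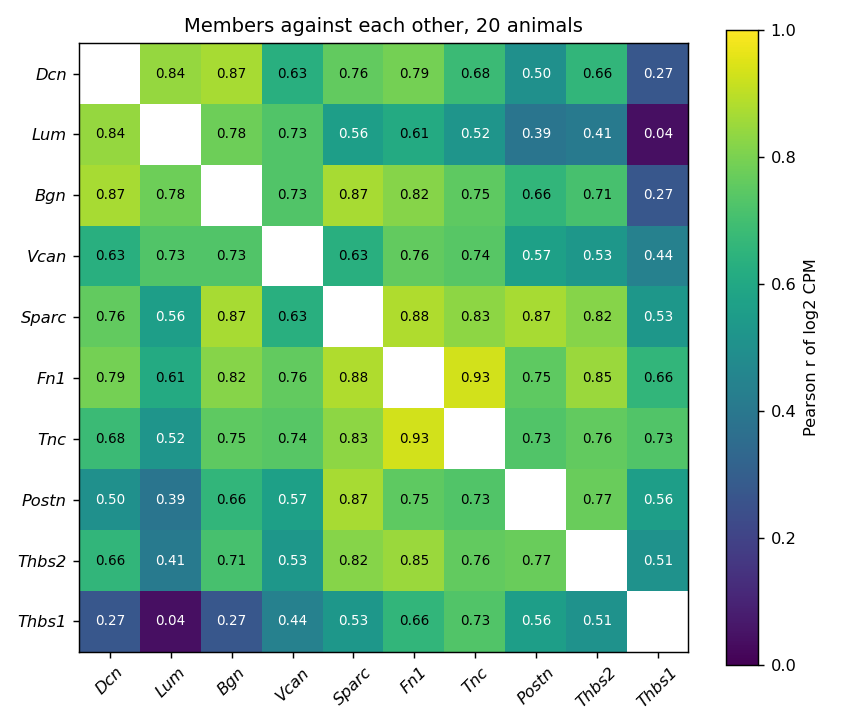
Pearson r of log2 CPM between the members over the 20 animals not set apart, from dark (0) to yellow (1). Dcn, Lum and Bgn form one bright block and Fn1 and Tnc are the brightest pair (0.93), while the Thbs1 row is dark against Dcn, Lum and Bgn (0.27, 0.04 and 0.27).

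Among 11643 genes with symbols outside the 10 members, the 3 nearest to each member were sought by r over the same 20 animals. Nearest to Fn1 were Fstl1 (r = 0.95, rho = 0.91), Col1a2 (0.94 and 0.93) and Fbn1 (0.94 and 0.93), of which the last pair encode a collagen I chain and fibrillin-1. Nearest to Dcn were Mdk (0.97 and 0.96), Frzb (0.96 and 0.96) and Ctsk (0.95 and 0.93), which encode the growth factor midkine, a secreted Wnt antagonist and a collagen-cleaving protease. Mgp, the matrix Gla protein, led for Bgn (0.93 and 0.93), Col14a1, a fibril-associated collagen, for Lum (0.92 and 0.87), and Ptgfrn for Tnc (0.90 and 0.78). For Postn the nearest were Stx11 (0.92 and 0.83), the collagen lysyl hydroxylase Plod2 (0.88 and 0.79) and Col15a1 (0.87 and 0.82). Thbs1 was nearest to Nrp2 (0.92 and 0.91), Asap1 (0.91 and 0.91) and Col5a1 (0.91 and 0.91), Thbs2 to Serpinb9 (0.93 and 0.85), Sparc to Elk3 (0.94 and 0.91), and Vcan, whose best was lowest, to Plxdc2 (0.85 and 0.73). These are the tops of long rankings and carry no test.

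The other genes of these families, taken from written lists, were tested in the same fit. Of 21 other matricellular genes tested, 0 passed in CoCM and 2 were under an unadjusted 0.05, a share below the 11.9% of all genes. In this list 14 genes were fitted lower, and the median log2 fold change was −0.21, or −0.01 without the animals set apart. Ccn6 had the smallest p, at 1.25 ± 0.442 (edgeR adjusted p = 0.338), and Sparcl1, a relative of Sparc, followed at −0.39 ± 0.183 (adjusted p = 0.413). Of 11 other proteoglycan genes, 0 passed and 1 was under 0.05, again below the share of all genes, with 9 fitted lower and a median of −0.26, or −0.16 without the animals set apart. Aspn and Ogn, which encode the small leucine-rich proteoglycans asporin and osteoglycin, stood at −0.67 ± 0.321 and −0.71 ± 0.39. In i.p. and i.v. 0 genes of either list passed (0% of all genes), with 1 and 1 matricellular and 0 and 1 proteoglycan genes under an unadjusted 0.05.

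Of 21 genes for receptors of these proteins, 0 passed in CoCM, 6 had an unadjusted p under 0.05 (5 of them lower; 11.9% of all genes did), and 20 were fitted lower, with a median of −0.47. The smallest p values belonged to the syndecan Sdc3 (−0.52 ± 0.167, edgeR adjusted p = 0.302), to Egfr, to which tenascin-C and decorin can bind (−0.62 ± 0.233, adjusted p = 0.353), and to the thrombospondin receptor Cd36 (−0.51 ± 0.202, adjusted p = 0.371). Without the animals set apart the receptor median was −0.38, with 9 of 21 under 0.05 (16.9% of all genes) and 0 passing. In i.p. 0 passed (0% of all genes) with a median of −0.17, or −0.10 without the animals set apart. In i.v. 0 passed (0% of all genes) with a median of −0.21, or −0.05 without the animals set apart. Of 25 genes that build, sulphate or cleave glycosaminoglycan chains and matrix, 0 passed in CoCM and 3 had an unadjusted p under 0.05, about the 11.9% seen over all genes. By the rule of the smallest p these were the sulphotransferases Chst15 (−1.10 ± 0.303, adjusted p = 0.224) and Ust (−0.84 ± 0.324, adjusted p = 0.368) and the versican-cleaving protease Adamts5 (−0.87 ± 0.268, adjusted p = 0.29). Medians of that list were −0.25 for CoCM, −0.11 for i.p. and −0.17 for i.v., and 0 genes passed in i.p. or i.v. Without the animals set apart the medians were −0.18, −0.06 and −0.02.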

How the data were processed

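Left-kidney RNA of 24 rats (6 per group) was sequenced on a BGISEQ-500. The submitters' processing notes list Trim Galore 0.6.4, kallisto 0.4.6 and rn6, and the methods of the study cite a human gene-model package. For each animal the authors deposited estimated counts per Entrez gene, not normalized (86.5% to 87.4% of values whole), and TPM values, which the authors scaled by transcript length and library total. Symbols came from the RefSeq table of GRCr8 (17179 of 17334 matched).

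Estimated counts were rounded, filtered with filterByExpr (12778 genes kept), scaled by TMM and fitted in edgeR 4.0.16 (R 4.3.3) with 4 group means over all 24 animals. Standard errors are |log2 fold change| / √F. The study's DESeq2 (1.42.0) and limma (3.58.1) were alternatives. CPM and TPM are defined beside their values, and log2 CPM used a prior count of 2. Component 1 used genes with at least 10 counts in 6 samples. Animal numbers named replicates. No 2 animals of a group agreed within counting noise (smallest chi-square per degree of freedom 10.64). The fits were tested on simulated data. The 95% intervals come from the edgeR fit and reflect the spread between animals, while count limits cover counting error only. Genes named outside the members were the 3 with the smallest p of each list in a comparison, and the 3 with the highest r to each member. The members and lists were chosen with earlier results of these data known.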

Additional observations from a re-analysis of the deposited data

Results flagged for a closer look

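Dixon's test at the 95% level was applied to the 40 sets of 6 animals (10 members in 4 groups). By it, 11 log2 CPM values stood far from the rest of their group. Chance would give about 2 in independent sets, but the members varied together, so the 11 are not separate observations. CoCM 39 and i.p. 38, already set apart by their expression, had 5 each, the same 5 members. The same count over all genes was not made. For Tnc, CoCM 39 lay at −0.25 (others of its group 3.69 to 5.07) and i.p. 38 at −0.39 (others 3.89 to 5.40). For Postn the values were −1.87 in CoCM 39 (others 3.67 to 5.74) and −0.63 in i.p. 38 (others 3.81 to 5.16). For Dcn they were 4.59 (others 7.58 to 9.12) and 5.81 (others 8.28 to 8.94), and for Lum −0.06 (others 2.87 to 3.66) and −0.39 (others 3.43 to 4.06). Bgn stood at 7.89 in CoCM 39 (others 9.45 to 10.30) and at 8.28 in i.p. 38 (others 9.66 to 10.32). The remaining value was Tnc in Ctrl 1, at 5.66 above the 4.28 to 4.72 of the other Ctrl animals. In the i.v. group, which holds both i.v. 36 and i.v. 37, each of the pair is the nearest neighbour of the other for several members, and no value was far by this measure.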

How the results depend on the processing

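The count of members called was 0 in all 5 comparisons under edgeR, DESeq2, limma-voom with sample weights, and limma on log2(TPM + 1) and log2(TPM + 0.1). It was also 0 in all 5 with other size factors, with no filter, without the 4 animals set apart, and in all 120 fits without 1 animal. Fits of the compared groups alone, which were run for the pairwise comparisons only, gave 0 as well. Of 320 fold changes recomputed under other settings, 311 kept their direction, and of 960 without 1 animal, 942 did. Reversed were, without the 4 animals, Lum (0.036) and Vcan (0.061) in i.p., Thbs1 in i.v. (0.047), and for i.p. minus i.v. Postn (−0.053), Dcn (−0.112) and Sparc (−0.054). With sample weights Vcan in i.p. (0.111) and, for i.p. minus i.v., Postn (−0.037) and Sparc (−0.083) reversed. Leaving out 1 animal gave ranges across zero for Lum in i.p. (−0.402 to 0.03), Vcan in i.p. (−0.114 to 0.236) and i.v. (−0.304 to 0.05), and, for i.p. minus i.v., Postn (−0.011 to 0.706), Dcn (−0.151 to 0.365) and Thbs1 (−0.539 to 0.191). Why these values moved was not tested beyond the animals left out. On log2(TPM + 0.1) the median of all genes in CoCM shifted to −0.111 and that of the members was −1.01. Correlated pairs numbered 34 from CPM, 34 from TPM and 44 with all 24 animals. No paired analysis was possible because no animal number recurs between groups. At 1 to 7 counts, the Postn values of the 4 animals set apart are imprecise.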
